A study of Macaca mulatta with 136 samples.

Results

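The perimacula was compared with the nasal retina in 8 of the 32 libraries of a rhesus macaque (Macaca mulatta) series. The 8 were picked out by their labels, as the neural retina libraries of these locations, 4 from the perimacula and 4 from the nasal location. The study took punches of postmortem eyes at these locations and at the fovea/macula and periphery, separated neural retina from RPE/choroid (the pigment epithelium with the vascular layer under it) and sequenced poly-A RNA of each. The eyes were the right (OD) and left (OS) eyes of 2 animals, RM03 and RM04, and the animals were 13 and 18 years old, without a statement of which was which. None of the groups carried a treatment or an engineered allele, and both groups came from the same 4 eyes. Punches were 2 mm wide. The drawing of the punches in the study sets fovea, perimacula and periphery in a row that leads away from the optic disc, which is the temporal side, and the distance of the nasal punch from the fovea is not given in the sources used here. Values are given in the order RM03 OD, RM03 OS, RM04 OD and RM04 OS, called eyes 1 to 4. An n of 4 counts eyes and not animals, so the spread between samples is in part the spread between fellow eyes.

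The primate retina differs along 2 kinds of axis. Away from the fovea, ganglion cells, which send the axons of the optic nerve, become sparse, while rods and the territory of each Müller cell, the radial glial cell of the retina, increase. The nasal and temporal sides are set apart in the embryo by transcription factors, with the forkhead factor FOXD1 on the temporal side, and graded Eph receptors and ephrins then guide ganglion cell axons to their targets by origin. The nasal retina also holds the optic disc, where the axons leave the eye among astrocytes. A perimacula punch and a nasal punch can therefore differ by side, by distance from the fovea and by distance from the disc. In bulk RNA, fewer cells of a type and less RNA per cell cannot be told apart.

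The perimacula libraries held 42448891 to 57150491 estimated counts and the nasal libraries 57012668 to 64466216, each on 5 lanes of the same 2 flow cells. Tissue labels were checked with markers: the rod arrestin SAG stood at 3856 to 6425 CPM (estimated counts scaled to the TMM-adjusted total of each library) in perimacula and 4664 to 6769 in nasal retina, against 15.3 ± 11 and 28.4 ± 15.7 CPM (mean ± SD, n = 4 eyes) in RPE/choroid of the same locations. RPE65, the isomerase of the pigment epithelium, gave 52.9 to 104 and 117 to 193 CPM in these retina libraries, against 3587 ± 1942 and 6559 ± 1884 in RPE/choroid. RPE65 was thus detected in every retina library. Over the 13 measured genes of an RPE/choroid list, the mean log2 CPM was 3.30, 3.73, 3.84 and 3.64 in the perimacula of eyes 1 to 4 and 4.11, 3.65, 4.13 and 4.32 in the nasal retina. The nasal value was the higher in 3 of 4 eyes.

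Among the 8 libraries, the perimacula of RM04 stood apart in opposite directions in its fellow eyes. The 23 measured ganglion cell genes had a mean of 5.69, 5.82, 5.54 and 6.34 log2 CPM in the perimacula and 5.29, 5.18, 5.36 and 5.17 in the nasal retina, so the ganglion signal of the perimacula was lowest in RM04 OD and highest in RM04 OS. The 14 rod genes ran the other way in the perimacula, with 10.37, 10.43, 10.61 and 9.92 log2 CPM, and were close together in the nasal retina, with 10.59, 10.50, 10.60 and 10.64. Calls of named genes and counts of called list members that changed without the perimacula library of RM04 OD are given beside the result, as are list medians that moved by more than 1.5 times. Leaving out this library raised the number of called genes, and leaving out any other single perimacula library lowered it. List results without those other libraries are not given here, so the values shown lean toward more calls.

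Of 15486 genes tested, 231 were called at an adjusted p under 0.05 (edgeR quasi-likelihood test with the animal as covariate, Benjamini-Hochberg adjustment), which is 1.49% of the genes tested. Of these, 69 (0.446%) were higher in the perimacula and 162 (1.05%) were higher in the nasal retina. At an unadjusted p under 0.05 there were 2569 genes. The change exceeded 1 on the log2 scale in 24 of the genes higher in the perimacula and 41 of those higher in the nasal retina, and the median absolute log2 fold change of called genes was 0.69, against 0.13 over all genes tested. The direction was the same in all 4 eyes for 229 of the 231 genes, and in 179 (77.5%) the perimacula and nasal libraries did not overlap, against 7.38% of all genes tested. Without the perimacula library of RM04 OD, 691 genes (4.44%) were called, 368 (2.36%) higher in the perimacula and 323 (2.07%) higher in the nasal retina, and 226 of the 231 were among them in the same direction. Leaving out the perimacula library of RM03 OD, RM03 OS or RM04 OS instead gave 45, 165 and 71 calls. A block on the eye in place of the animal gave 158 calls (1.02%). With DESeq2 in place of edgeR, 785 genes were called, 403 of them higher in the perimacula.

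**Figure D1:**
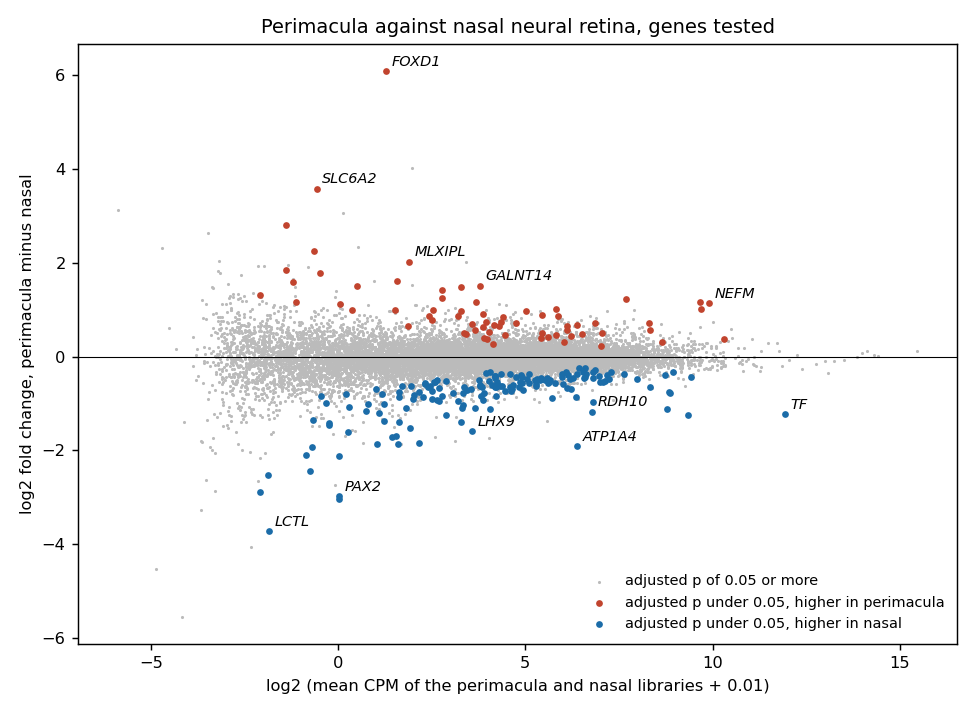
Each point is 1 of 15481 genes tested, placed by its mean level in the 8 libraries (x axis, log2 of mean CPM + 0.01) and its log2 fold change, perimacula minus nasal (y axis); genes not reported here are left out. The 68 red and 159 blue points passed the test, with FOXD1 at the top.

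The temporal forkhead factor of the background above separated the locations. FOXD1 (ENSMMUG00000040510) stood at 6.01, 3.26, 2.31 and 7.59 CPM in the perimacula and 0.141, 0.0672, 0.0526 and 0.0301 CPM in the nasal retina. The groups did not overlap, and the fold was 67.3 (log2 fold change 6.07, SE 0.53, edgeR with Benjamini-Hochberg adjustment, adjusted p = 1.52e-04). In the nasal libraries 3 counts are 0.0452 to 0.0530 CPM, so the nasal values lie near the floor and the size of the fold is uncertain. It stood at 9.97, 4.75, 4.05 and 5.04 CPM in the fovea and at 1.39, 0.760, 0.841 and 0.606 CPM in the periphery, below the perimacula and above the nasal retina in every eye. FOXD1 was called in all 21 of the alternative analyses that tested it.

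**Figure D2:**
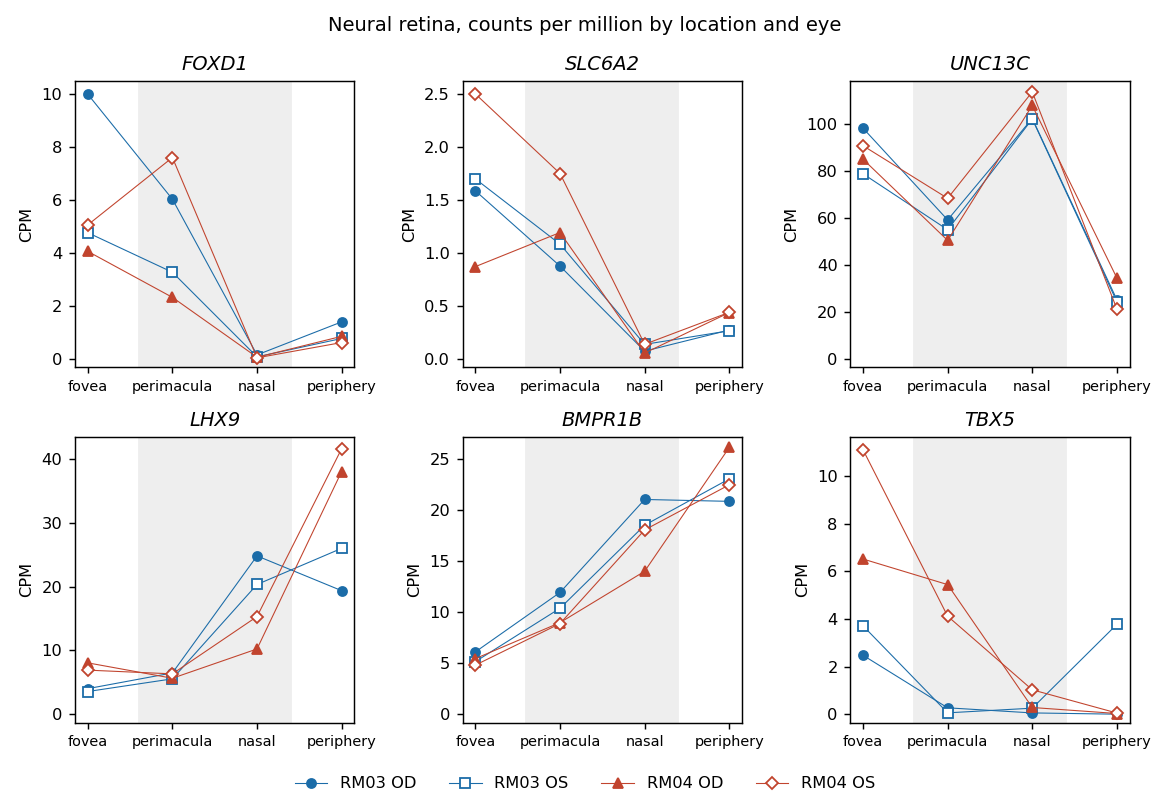
CPM (y axis, from 0) of 6 genes in the neural retina of the 4 eyes by location (x axis); blue and red are the animals, filled and open symbols the right and left eyes, lines join the libraries of an eye, and the grey band marks the perimacula and nasal libraries. FOXD1 and SLC6A2 are lowest in the 4 nasal libraries, UNC13C, LHX9 and BMPR1B are higher in nasal than in perimacula in 4 of 4 eyes, and TBX5 differs by animal in the perimacula.

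In a list of 14 genes of the nasotemporal axis, 13 were tested, with a median log2 fold change of 0.05, against -0.02 over all genes tested. HMX1, a homeobox factor of the developing nasal retina, spanned 0.582 to 3.56 CPM in the perimacula and 1.89 to 3.65 CPM in the nasal retina, with overlap. Of the receptors that read the ephrin-A gradient, EPHA5 gave 29.7, 29.9, 16.6 and 34.9 CPM in the perimacula and 21.2, 18, 14 and 12.9 CPM in the nasal retina, and EPHA6 gave 5.75, 5.32, 4.15 and 9.46 against 4.01, 3.19, 3.68 and 3.21 CPM. Each was above the nasal value of the same eye in 4 of 4 eyes, with log2 fold changes of 0.77 (SE 0.21) and 0.81 (SE 0.22), and neither passed the test (edgeR with Benjamini-Hochberg adjustment, adjusted p = 0.0808 and 0.0854). EPHA3 lay the other way, at 43.3, 39.7, 47.4 and 42.8 CPM against 50.5, 47.8, 54.5 and 56.7 CPM (log2 fold change -0.27, SE 0.07, adjusted p = 0.0697). Without the perimacula library of RM04 OD these 3 receptors were called, at adjusted p = 0.0251, 0.027 and 0.0434 in this order. EPHA4 and EPHA7 had values of 47.4 to 90.4 and 36.8 to 60.4 CPM in the perimacula and 38.8 to 45.9 and 29.3 to 38.2 CPM in the nasal retina, and were not called. The ligands EFNA5 and EFNA3 overlapped between the groups, as did NR2F1 and NR2F2, nuclear receptors of retinal patterning.

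The dorsoventral axis was read with a list of 17 genes, of which 16 were tested. The list had 2 called members, both higher in the nasal retina (against 1.05% of all genes in that direction), and the median log2 fold change was -0.21. Without the perimacula library of RM04 OD, 3 members were called, all higher in the nasal retina (against 2.07% of all genes). BMPR1B, a bone morphogenetic protein (BMP) receptor, had 11.9, 10.4, 8.96 and 8.86 CPM in the perimacula and 21, 18.5, 14 and 18 CPM in the nasal retina (log2 fold change -0.84, SE 0.12, edgeR with Benjamini-Hochberg adjustment, adjusted p = 0.00372). CHRDL1, the BMP antagonist ventroptin, had 41, 43.2, 55.5 and 39.4 against 60.6, 66, 65.5 and 70.9 CPM (log2 fold change -0.56, SE 0.11, adjusted p = 0.0242, same test). For both genes all 4 nasal libraries lay above all 4 perimacula libraries. TBX5, a dorsal T-box factor, followed the animal in the perimacula, with 0.267, 0.0568, 5.44 and 4.11 CPM, so that both RM04 eyes were above both RM03 eyes, against 0.0530, 0.252, 0.281 and 1.02 CPM in the nasal retina. VAX2, a ventral homeobox factor, gave 16.4, 29.5, 33.3 and 15.3 CPM in the perimacula and 27.1, 27.4, 39.5 and 35.4 CPM in the nasal retina. Neither TBX5 nor VAX2 was called, and the height of a punch above or below the fovea is not given in the sources used here.

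Retinoic acid, the vitamin A derivative that patterns the eye and is broken down by CYP26 enzymes, was followed with 18 genes, all tested. RDH10, which makes the retinaldehyde from which retinoic acid is formed, had 71.6, 79.3, 72 and 46.8 CPM in the perimacula and 142, 157, 147 and 161 CPM in the nasal retina, and the groups did not overlap. It was 2.26-fold higher in the nasal retina (log2 fold change -1.17, SE 0.16, edgeR with Benjamini-Hochberg adjustment, adjusted p = 0.00271) and was called in all 22 alternative analyses. RDH10 is also a gene of the pigment epithelium and of Müller cells; RPE65 gave 52.9, 104, 80.2 and 93.1 CPM in the perimacula and 193, 117, 117 and 123 CPM in the nasal retina of the same eyes, and the part of RPE RNA in the RDH10 difference was not tested. CYP26B1 gave 0.703, 0.966, 3.42 and 0.563 CPM against 2.56, 4.27, 5.93 and 7.18 CPM, lower in the perimacula of each eye, and missed the threshold (log2 fold change -1.86, SE 0.45, adjusted p = 0.0539). It passed without the perimacula library of RM04 OD (adjusted p = 0.0161). CYP26A1, its relative in the fovea, reached 0.436, 0.208, 0.697 and 4.17 CPM in the perimacula and 0.618, 0.571, 0.929 and 0.677 CPM in the nasal retina, with RM04 OS alone above 1 CPM. The synthesizing enzymes ALDH1A1, ALDH1A2 and ALDH1A3 overlapped between the groups. RXRG, a retinoid receptor of cones, was higher in the perimacula, at 102, 87.6, 83.4 and 136 CPM against 60.1, 57.1, 73.5 and 67.6 CPM (log2 fold change 0.66, SE 0.14, adjusted p = 0.0359), and lost the call with the eye as a block (adjusted p = 0.0517). The median over the 18 genes was -0.20.

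Ganglion cell genes were the group most often higher in the perimacula. Of 25 listed genes 22 were tested, the log2 fold change was positive in 22 of 22, from 0.04 to 1.15, and the median was 0.74, against -0.02 over all genes tested. Only the 3 neurofilament subunits, which form the cytoskeleton of large axons, were called (3 of 22, against 0.446% of all genes in that direction). NEFM gave 1372, 1183, 824 and 1931 CPM in the perimacula and 656, 591, 624 and 541 CPM in the nasal retina, a 2.20-fold difference (log2 fold change 1.14, SE 0.23, edgeR with Benjamini-Hochberg adjustment, adjusted p = 0.0254). NEFH gave 1344, 992, 668 and 1464 against 555, 472, 499 and 478 CPM (log2 fold change 1.15, adjusted p = 0.041), and NEFL gave 1083, 1024, 723 and 1538 against 579, 550.0, 559.7 and 496 CPM (log2 fold change 1.00, adjusted p = 0.035). In all 3 the groups did not overlap, RM04 OD was the lowest perimacula library and RM04 OS the highest. NEFL lost the call with the eye as a block (adjusted p = 0.0503). Of 22 alternative analyses, NEFM and NEFH were each called in 10 and NEFL in 9. RBPMS, an RNA-binding protein that marks ganglion cells, gave 115, 105, 91.6 and 231 CPM against 65.9, 65.5, 89 and 75.5 CPM, with RM04 OS above the other perimacula libraries. THY1, a surface glycoprotein of the same cells, gave 286, 253, 220.4 and 442 CPM against 183, 162, 194 and 154 CPM. Neither was called (log2 fold change 0.87 and 0.79, adjusted p = 0.108 and 0.131). Without the perimacula library of RM04 OD, 12 of the 22 were called, all higher in the perimacula (against 2.36% of all genes in that direction), and the median was 0.88. RBPMS was among the 12, at adjusted p = 0.0337, and THY1 was not, at 0.0621 (same test). The same count without the perimacula library of RM04 OS, the highest for this list, is not given here.

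The difference of the ganglion cell list within an eye, perimacula minus nasal, was 0.40, 0.64, 0.19 and 1.17 in mean log2 CPM, positive in 4 of 4 eyes. Voltage-gated channels carry the firing of ganglion cells and other neurons. Of 33 tested channel genes, 2 were called, both higher in the perimacula (against 0.446% of all genes in that direction), and the median log2 fold change was 0.15. KCNA1, a potassium channel subunit of axons and 1 of the called genes, gave 60.4, 52.5, 45.6 and 65.5 CPM in the perimacula and 33.4, 31.1, 29.97 and 27.5 CPM in the nasal retina (log2 fold change 0.88, SE 0.15, edgeR with Benjamini-Hochberg adjustment, adjusted p = 0.0102). All 4 perimacula libraries of KCNA1 lay above all 4 nasal libraries. KCNC1, a fast potassium channel subunit, was not called, at 68 to 93.2 CPM against 53.5 to 65.4 CPM. Without the perimacula library of RM04 OD, 8 of these channel genes were called higher in the perimacula (against 2.36% of all genes) and 1 higher in the nasal retina (against 2.07%).

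BDNF, a neurotrophin of ganglion cells, was also higher in the perimacula, at 18.5, 16.7, 12.6 and 23.5 CPM against 8.83, 6.72, 8.50 and 7.80 CPM (log2 fold change 1.16, SE 0.17, edgeR with Benjamini-Hochberg adjustment, adjusted p = 0.00372), and the lowest perimacula library was above the highest nasal one.

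**Figure D3:**
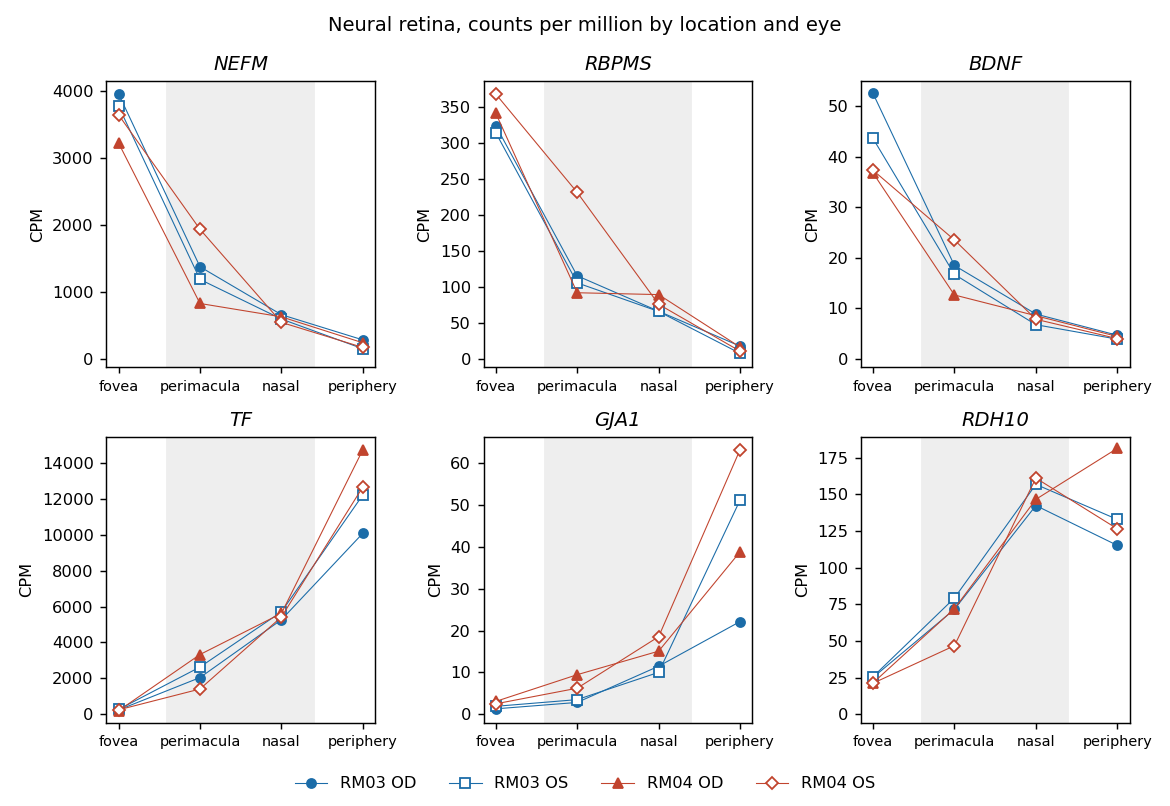
CPM (y axis, from 0) of 6 genes in the neural retina of the 4 eyes by location (x axis), with colours, symbols and lines as for the axis genes and the grey band on the perimacula and nasal libraries. NEFM and BDNF are above the nasal value in the perimacula of each eye, TF, GJA1 and RDH10 are below it, and among the perimacula libraries of RBPMS that of RM04 OS is the highest.

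Müller glia genes lay on the nasal side. Of 19 tested, 5 were called, all 5 higher in the nasal retina (against 1.05% of all genes in that direction), 17 of 19 log2 fold changes were negative, and the median was -0.44. TF, the iron carrier transferrin, gave 2043, 2631, 3329 and 1404 CPM in the perimacula and 5271, 5711, 5623 and 5427 CPM in the nasal retina and was 2.34-fold higher there (log2 fold change -1.23, SE 0.20, edgeR with Benjamini-Hochberg adjustment, adjusted p = 0.00958). GPX3, a secreted glutathione peroxidase, gave 268, 498, 579 and 204 against 879.5, 963, 912 and 898 CPM (log2 fold change -1.24, SE 0.28, adjusted p = 0.0441). The nasal libraries of both genes were tight and the perimacula libraries wide, with RM04 OD the highest and RM04 OS the lowest of the perimacula. VIM, the intermediate filament vimentin, gave 282, 341, 459.9 and 284 against 537, 553, 597 and 615 CPM (log2 fold change -0.76, adjusted p = 0.00973). WIF1, an inhibitor of Wnt ligands, gave 251, 333, 486 and 309 against 513, 573, 608 and 638 CPM (log2 fold change -0.78, adjusted p = 0.0112), and DKK3 of the dickkopf family gave 499, 531, 716 and 586 against 703, 728, 853 and 876 CPM (log2 fold change -0.44, adjusted p = 0.0275). Among these 5, the groups overlapped in DKK3 alone. RLBP1, the retinaldehyde carrier that heads the list, gave 496, 601, 545 and 289.8 against 813, 816, 700.0 and 668 CPM without overlap and missed the threshold (log2 fold change -0.64, adjusted p = 0.0703, and 0.0289 without the perimacula library of RM04 OD). Glutamine synthetase, GLUL, was level, at 736 to 831 CPM against 802 to 898 CPM, and its value is uncertain because 2 entries carry the symbol. In the fit that left out this RM04 OD library, 7 of the 19 Müller genes were called higher in the nasal retina (against 2.07% of all genes) and 1 higher in the perimacula (against 2.36%).

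Astrocyte genes lay on the same side. Of 9 tested, 2 were called, both higher in the nasal retina (against 1.05% of all genes in that direction). The log2 fold change was negative in 7 of the 9 and positive in 2, with a median of -0.63. The number called was 4 without the perimacula library of RM04 OD, all higher in the nasal retina (against 2.07%). GJA1, the gap junction protein connexin 43, gave 2.81, 3.49, 9.45 and 6.22 CPM in the perimacula and 11.5, 10.01, 15.1 and 18.5 CPM in the nasal retina (log2 fold change -1.40, SE 0.26, edgeR with Benjamini-Hochberg adjustment, adjusted p = 0.0183), with RM04 OD again the highest perimacula library. GJA1 stood higher in RPE/choroid, at 122 ± 78.0 CPM in the perimacula and 191 ± 54.5 CPM in the nasal punch (mean ± SD). The part of RPE/choroid RNA in its retina difference was not tested. PAX2, a paired-box factor of the optic stalk and of astrocytes at the disc, gave 0.0242, 0.417, 0.391 and 0.0376 CPM against 1.24, 1.75, 1.89 and 2.32 CPM (log2 fold change -2.97, SE 0.67, adjusted p = 0.0404, and 0.0635 with the eye as a block). GFAP, the astrocyte filament, split by animal: the nasal libraries held 102, 163, 14.2 and 14.3 CPM and the perimacula libraries 28.5, 36.9, 13.3 and 12.5 CPM, so that the locations were far apart in RM03 and close in RM04. It was not called (adjusted p = 0.151, same test). Of 9 tested genes of the oligodendrocyte and myelin list 1 was called, higher in the nasal retina (against 1.05% of all genes). The median of this list was -0.18. Without the perimacula library of RM04 OD, 1 was called in each direction (against 2.36% of all genes in perimacula and 2.07% in nasal direction). MBP, myelin basic protein, was not called and gave 1.80 to 4.47 CPM in the perimacula and 2.60 to 4.55 CPM in the nasal retina, with overlap.

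**Figure D4:**
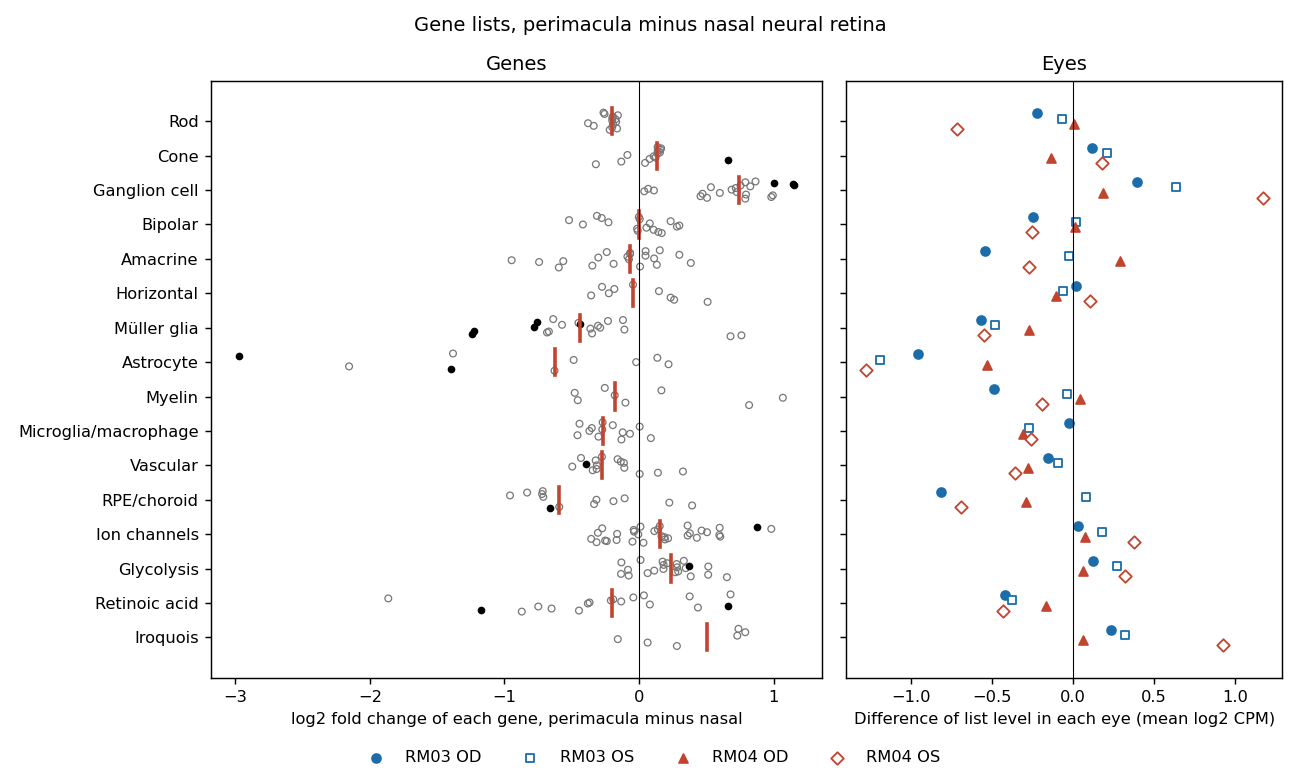
Left, log2 fold change (perimacula minus nasal) of each tested gene of 16 lists, filled where the gene passed the test, with the median of the list as a red bar; right, the difference of the mean log2 CPM of the list within each of the 4 eyes. Ganglion cell genes lie to the right of 0 in every eye, and Müller and astrocyte genes to the left in every eye. RM04 OS lies farthest from 0 for the rod, ganglion cell, astrocyte, vascular, ion channel, glycolysis and Iroquois lists. By a small margin it does so for the bipolar, horizontal and retinoic acid lists too.

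Of the photoreceptor genes, RXRG alone was called, as a member of the cone and transcription factor lists. In its direction, 0.446% of all genes tested were called. None of 14 tested rod genes was called, although all 14 log2 fold changes were negative, from -0.38 to -0.16, with a median of -0.20. The median was -0.31 without the perimacula library of RM04 OD, and again none was called. SAG gave 4719, 4605, 6425 and 3856 CPM in the perimacula and 5559.9, 4664, 6693 and 6769 CPM in the nasal retina, and PDE6B, a subunit of the rod phosphodiesterase, gave 911, 986, 1072 and 565 against 1045, 1062, 1079 and 1023 CPM. The perimacula of RM04 OS was the lowest library for both, and the groups overlapped. Of 14 tested cone genes, RXRG was the 1 called and the median was 0.13. The cone arrestin ARR3 gave 615 to 733 CPM in the perimacula and 527 to 681 CPM in the nasal retina, and the cone transducin GNAT2 gave 107 to 187 against 86.7 to 154 CPM. Of 14 photoreceptor transcription factors, RXRG was again the called member, and CRX and OTX2, which drive photoreceptor genes, overlapped between the groups.

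The interneuron lists gave no called gene, against 1.49% of all genes tested. The medians were 0.00 over 18 bipolar genes, -0.07 over 20 amacrine genes and -0.04 over 9 horizontal cell genes, against -0.02 over all genes tested. These medians were, without the perimacula library of RM04 OD, 0.04, -0.15 and 0.07. In that fit 1 horizontal cell gene was called, higher in the perimacula (against 2.36% of all genes). GRM6, the glutamate receptor of ON bipolar cells, gave 77.2 to 125 CPM in the perimacula and 108 to 148 CPM in the nasal retina. GAD1 and TFAP2A of amacrine cells and ONECUT1 and LHX1 of horizontal cells overlapped between the groups. Of 39 tested receptors for glutamate, GABA and glycine none was called, with a median of 0.12 (0.18 without that library).

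Each list of the other cell types held 0 or 1 called genes. Of all genes tested, 1.05% were called higher in the nasal retina, the direction of these calls. Of 15 vascular genes, KDR, a VEGF receptor, was called, at 369, 357, 361 and 381 CPM in the perimacula and 443, 494, 488 and 510.2 CPM in the nasal retina (log2 fold change -0.40, SE 0.07, edgeR with Benjamini-Hochberg adjustment, adjusted p = 0.0143), while PECAM1 and CLDN5 of endothelial cells were not; the median was -0.28. None of 13 microglia and macrophage genes was called, with a median of -0.27; CX3CR1 gave 5.53 to 7.53 CPM against 7.04 to 9.98 CPM, and CSF1R gave 10.1 to 15.6 against 15.1 to 20.7 CPM. Of 13 RPE/choroid genes, COL8A1, a short-chain collagen, was called, at 4.68, 6.59, 4.18 and 4.73 CPM against 8.94, 6.08, 8.98 and 7.68 CPM and lower in the perimacula in 3 of 4 eyes (log2 fold change -0.66, adjusted p = 0.0381, and 0.0687 with the eye as a block), and 11 of the 13 log2 fold changes were negative, with a median of -0.59. TTR, transthyretin, gave 45.2 to 74.4 CPM in the perimacula and 61.7 to 137 CPM in the nasal retina. The beta globin gene HBB gave 8.51, 8.88, 6.92 and 4.73 against 13.2, 19.9, 12.1 and 7.62 CPM and was not called, nor were the other 2 tested blood genes. HBB was called higher in the nasal retina once the perimacula library of RM04 OD was left out (adjusted p = 0.0436, same test).

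The glycolysis and stress lists each held 1 called gene, higher in the perimacula, as were 0.446% of all genes tested. Of 22 glycolysis genes, 18 log2 fold changes were positive with a median of 0.24, and ALDOC, an aldolase of the nervous system, was called, at 1245, 1318, 1449 and 1713 CPM against 1060.5, 959, 1258 and 1155 CPM (log2 fold change 0.37, SE 0.09, edgeR with Benjamini-Hochberg adjustment, adjusted p = 0.0486, and 0.0848 with the eye as a block). Leaving out the perimacula library of RM04 OD gave 3 called glycolysis genes, all higher in the perimacula (against 2.36% of all genes). Several glycolysis symbols are carried by more than 1 entry and are uncertain. HK1 and HK2, the hexokinases that head the list, were not called. ASNS, asparagine synthetase, was the 1 called of 12 stress genes, at 45.8, 44.8, 44.9 and 57.7 CPM against 35.7, 35.2, 38.5 and 37.7 CPM (log2 fold change 0.39, adjusted p = 0.0436, and 0.0713 with the eye as a block), and DDIT3 overlapped; the median of this list was 0.06, and 0.01 without the perimacula library of RM04 OD. None of 20 immediate early genes was called, with a median of 0.08 (-0.01 without that library); EGR1 followed the animal, at 22.3, 29.2, 82.5 and 82.6 CPM in the perimacula and 14.8, 21.4, 83.8 and 86.1 CPM in the nasal retina. None of the 6 Iroquois homeobox genes was called either, with a median of 0.51. IRX1 gave 5.43, 5.70, 3.38 and 6.57 CPM against 3.62, 3.36, 2.86 and 2.82 CPM, and IRX2 gave 9.68, 11.8, 6.10 and 13.4 against 6.20, 6.42, 6.19 and 4.95 CPM. IRX2 was called higher in the perimacula when the perimacula library of RM04 OD was left out (same test, adjusted p = 0.0421).

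The largest called changes above a mean level of 3 log2 CPM included several genes outside these lists. On the perimacula side were GALNT14, a glycosyltransferase, at 20.01, 15.8, 13.7 and 32.4 CPM against 7.08, 6.30, 8.03 and 7.26 CPM (log2 fold change 1.51, SE 0.31, edgeR with Benjamini-Hochberg adjustment, adjusted p = 0.0275), and BAALC, at 18.6, 18, 7.22 and 13.3 against 7.13, 6.20, 3.52 and 3.51 CPM (log2 fold change 1.49, SE 0.20, adjusted p = 0.00272). BAALC was higher in the perimacula of every eye, while the RM03 nasal libraries came close to the RM04 OD perimacula library. HR, the corepressor hairless, gave 355, 321, 151 and 329 against 163, 158, 95.9 and 88 CPM (log2 fold change 1.23, adjusted p = 0.0311), with RM04 OD below the RM03 nasal libraries. ADCY3 (an adenylyl cyclase), PALM3, DDR2 (a collagen receptor), MAP7D2 (a microtubule-binding protein), PHOSPHO1 (a phosphatase) and ANO4 (of the anoctamin family) completed this side, with log2 fold changes of 0.98, 0.97, 0.91, 0.87, 0.85 and 0.83. ADCY3 and PALM3 lost the call with the eye as a block (adjusted p = 0.0678 and 0.0736, same test).

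On the nasal side, ATP1A4, which encodes an alpha subunit of the sodium pump, had the largest change at this level, at 24.6, 38.7, 55.4 and 22.6 CPM in the perimacula and 118, 148, 119 and 139 CPM in the nasal retina, 3.75-fold higher there (log2 fold change -1.91, SE 0.24, edgeR with Benjamini-Hochberg adjustment, adjusted p = 0.00271). It was called in all 22 alternative analyses. LHX9, a LIM homeobox factor, gave 6.47, 5.55, 5.64 and 6.33 against 24.8, 20.4, 10.2 and 15.3 CPM (log2 fold change -1.59, SE 0.30, adjusted p = 0.0199), level across the perimacula and highest in RM03 among the nasal libraries. SPP1, the secreted phosphoprotein osteopontin, gave 236, 259, 403 and 224 against 541, 553, 652 and 677 CPM (log2 fold change -1.11, SE 0.14, adjusted p = 0.00271). The nasal and perimacula libraries of ATP1A4, LHX9 and SPP1 did not overlap. CDH23, the cadherin of hair bundles and photoreceptors, gave 53.5, 54.1, 116 and 77.4 against 97.5, 108, 182 and 200.3 CPM (log2 fold change -0.96, adjusted p = 0.00272); it was higher in RM04 at both locations, so the groups overlapped although the nasal value was the higher in each eye. S1PR3 (a sphingosine 1-phosphate receptor), PLXNB3 (a semaphorin receptor), CDC42EP1, ITGB8 (an integrin subunit), COL6A1 (a collagen chain), ANGPTL1 and DTX4 had log2 fold changes of -1.10, -1.11, -1.09, -1.04, -0.95, -0.93 and -0.88. In nasal RPE/choroid, PLXNB3, CDC42EP1, ITGB8 and COL6A1 had means of 49.1, 96.3, 117 and 448 CPM, against 22.4, 13.5, 13.6 and 12.1 CPM in nasal retina. ANGPTL1 and DTX4 stood lower there, at 2.41 and 16.9 against 19.2 and 67.9 CPM. The part of RPE/choroid RNA in these retina differences was not tested.

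Below 3 log2 CPM there were 79 called genes, and 15 of them had an absolute log2 fold change over 2, of which 5 were higher in the perimacula and 10 in the nasal retina. This group was chosen after its values were seen. Several of its lower values lie near 3 counts, which are 0.0727 CPM or less per library, so the fold sizes are uncertain. Beside FOXD1, the perimacula side held SLC6A2, the noradrenaline transporter, at 0.873, 1.08, 1.19 and 1.75 CPM against 0.0706, 0.134, 0.0526 and 0.135 CPM (log2 fold change 3.58, SE 0.38, edgeR with Benjamini-Hochberg adjustment, adjusted p = 0.00113), which was called in all 21 of the alternatives that tested it. MLXIPL, a glucose-sensing transcription factor, gave 7.71, 6.48, 3.55 and 6.14 against 1.40, 1.53, 1.37 and 1.57 CPM (log2 fold change 2.02, SE 0.26, adjusted p = 0.00271). RFPL2 and VGLL3 had log2 fold changes of 2.79 and 2.25 at perimacula levels of 0.0680 to 1.14 and 0.289 to 1.96 CPM. Beside PAX2, the nasal side held the homeobox factor OTX1, at 0.0485, 0.0379, 0.119 and 0 CPM against 0.371, 0.706, 0.228 and 0.301 CPM, and the zinc finger factor ZIC4, at 0.364, 0.758, 0.289 and 0.0939 against 1.75, 2.44, 1.02 and 1.28 CPM. OTX1 had an adjusted p of 0.0495 (same test), and of 0.079 with the eye as a block. LCTL, a klotho-family protein, gave 0, 0.0189, 0.0680 and 0.0563 against 0.494, 0.504, 0.351 and 0.662 CPM, and SCRG1 gave 0.242, 0.246, 0.323 and 0.0751 against 1.73, 1.76, 2.05 and 1.67 CPM, in both cases with all nasal libraries above all perimacula libraries. PNLIP (a lipase) and the potassium channel genes KCNK5 and KCNJ16 had log2 fold changes of -2.53, -2.45 and -2.09.

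Fovea and periphery libraries share no library with the perimacula and nasal groups and were fitted as a separate contrast, in which 10789 genes (69.7%) were called. Of the 69 genes higher in the perimacula, 65 (94.2%) were also higher in the fovea than in the periphery, where 32% of all genes tested were; 3 lay the other way and 1 was not called. Of the 162 genes higher in the nasal retina, 147 (90.7%) were higher in the periphery than in the fovea, where 37.6% of all genes tested were; 2 lay the other way and 13 were not called. Across the 15486 genes, which are not independent replicates, the log2 fold changes of the contrasts had Pearson r = 0.50 and Spearman rho = 0.50. The fovea, perimacula and nasal libraries shared flow cells, and the periphery libraries were on another, so that location and flow cell cannot be told apart for the periphery.

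The exceptions were few. Above the same level of 3 log2 CPM, 4 genes were called in opposite directions by the contrasts. UNC13C, a synaptic vesicle priming protein, gave 59.2, 55, 50.4 and 68.4 CPM in the perimacula and 102, 102, 108 and 114 CPM in the nasal retina (log2 fold change -0.87, SE 0.13, edgeR with Benjamini-Hochberg adjustment, adjusted p = 0.00377). The groups did not overlap. UNC13C stood at 98.3, 78.8, 85.1 and 90.8 CPM in the fovea and 25.2, 24.3, 34.4 and 21.2 CPM in the periphery, higher in the fovea. HIPK2, a nuclear kinase, had a log2 fold change of -0.39 here and 0.30 for fovea minus periphery. DDR2 gave 21.2, 19.4, 19 and 16.3 CPM against 12.2, 12.1, 8.78 and 7.74 CPM and was called in the other direction in fovea against periphery (log2 fold change -0.95, adjusted p = 1.36e-04). GPATCH1 had log2 fold changes of 0.31 here and -1.25 there. FOXD1 was called on the fovea side (log2 fold change 2.71, adjusted p = 1.72e-05).

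**Figure D5:**
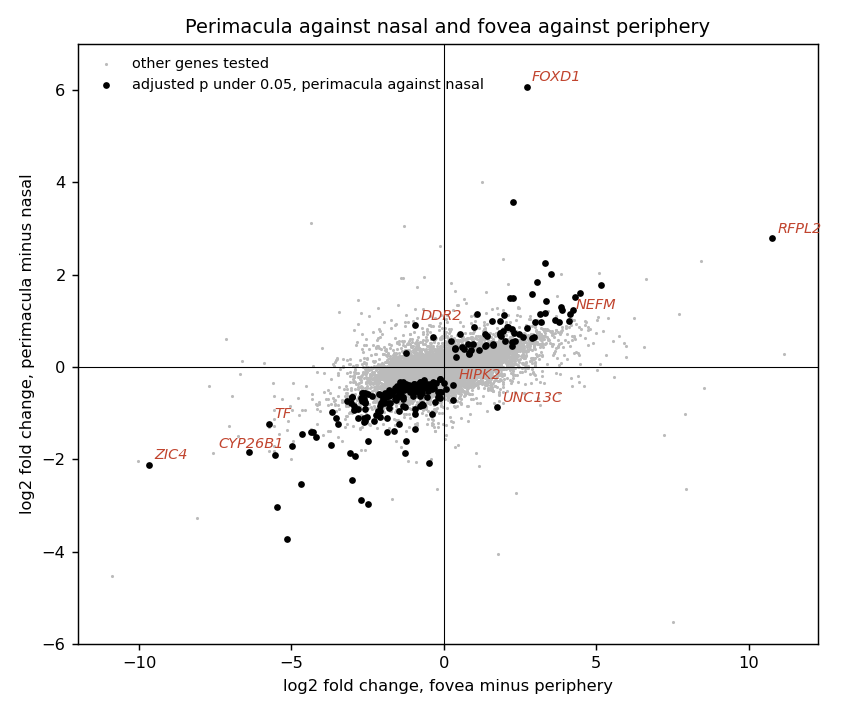
Each point is 1 of 15481 genes tested, with its log2 fold change from fovea to periphery (fovea minus periphery, x axis) and from perimacula to nasal retina (perimacula minus nasal, y axis); black points are the genes called in the latter, 68 higher in the perimacula and 159 higher in the nasal retina, and genes not reported here are left out. Most black points lie to the lower left and upper right of 0, with UNC13C, HIPK2 and DDR2 outside them.

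No gene was called for a difference between the animals in the perimacula to nasal change (0 of 15486, edgeR interaction test; 215 at an unadjusted p under 0.05, and 2 called with DESeq2, CCND1 and GFAP, which were named after their values were seen). In RPE/choroid of the same punches, the same contrast called 484 of 15789 genes (3.07%), 299 higher in the perimacula. Of the 222 genes called in retina and tested in RPE/choroid, 17 were called in both, 8 of them in the same direction. FOXD1 had 5.57 ± 1.46 CPM in perimacula RPE/choroid and 3.68 ± 0.445 CPM in nasal RPE/choroid (log2 fold change 0.59, SE 0.23, adjusted p = 0.164), and the retina difference exceeded it by 5.49 on the log2 scale (SE 0.55, adjusted p = 6.28e-06).

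The perimacula to nasal change differed between retina and RPE/choroid in 296 of 16382 genes (1.81%, edgeR interaction test with Benjamini-Hochberg adjustment). Above a mean level of 3 log2 CPM in retina, the extremes were genes with larger log2 fold changes in RPE/choroid than in retina. EBF3, a helix-loop-helix factor that marks ganglion cells in retina, gave 17.6 to 31.4 CPM in perimacula and 13.1 to 18.1 CPM in nasal retina, where it was not called, and 4.83 ± 0.545 against 0.177 ± 0.150 CPM in RPE/choroid (difference of log2 fold changes, retina minus RPE/choroid, -4.26, SE 0.53, adjusted p = 4.74e-05). KIF19 and GFAP differed in the same direction, by -5.64 and -4.72. PRUNE2, MAB21L1 and PAX6, the last a homeobox factor of the inner retina, differed the other way, by 2.34, 2.31 and 2.30, and in RPE/choroid were higher in the nasal punch at 8.70 ± 2.47, 9.23 ± 1.85 and 4.78 ± 2.17 CPM against 2.28 ± 0.888, 1.76 ± 0.472 and 1.23 ± 0.840 CPM. In retina PRUNE2 was not called, and was called without the perimacula library of RM04 OD (adjusted p = 0.027). In retina, PAX6 spanned 359 to 551 CPM in the perimacula and 341 to 371 CPM in the nasal retina. The rod gene SAG, a sign of retina RNA in RPE/choroid, also had the higher mean in the nasal punch there, as given above, and its part in these differences was not tested.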

How the data were processed

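Neural retina of the perimacula and the nasal location was taken from 4 eyes of 2 macaques (RNA integrity number above 6.5, 2 mm punches), and poly-A RNA was sequenced as paired reads of 100 bases. The authors assigned the reads of each lane with Salmon 0.13 to Mmul_8.0.1 transcripts, summed them to genes with tximport and deposited length-scaled TPM, which are estimated counts per gene not divided by the lane total. The 136 deposited lane tables list 19432 entries and 19422 gene identifiers; 10 repeated entries with identical values were dropped. Lanes were summed per library and rounded, since lanes are technical runs. Coordinates and sequences were not used here. Gene names are those of the tables, and where several identifiers carry a symbol the most abundant was used and is uncertain.

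Genes were tested with edgeR 4.0.16 (limma 3.58.1, R 4.3.3): TMM factors, filterByExpr at a minimum count of 10, quasi-likelihood fit of all 16 retina libraries with the animal as covariate, Benjamini-Hochberg adjustment over all genes tested, and a threshold of 0.05. CPM use TMM-scaled totals; log2 CPM of lists use a prior count of 2. SE is the absolute log2 fold change divided by the square root of F. The animal and tissue differences were interaction terms of the same fits. Samples of an eye are paired by their labels: same-eye deviations correlated at 0.63 to 0.85 (1000 genes), and at -0.03 to 0.28 after removing the animal mean. On simulated data for this comparison (15486 genes, 200 changed), 49.3%, 83.6% and 100% of genes changed by 0.5, 1 and 1.5 on the log2 scale were recovered, with 7.2% of calls false. The simulated locations shared the same means apart from an animal effect and the changed genes. Changed genes lay above 1 CPM and were shifted in the perimacula alone. No simulated library was set apart from its group, so these rates may not hold for the real libraries. Alternatives were DESeq2 1.42.0, RLE factors, other filters, the eye as a block, no covariate, fewer libraries in the fit, each flow cell alone and leaving out each eye or library.

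The location, the gene lists and the rules were chosen with earlier results of these data known. Genes named are the 15 largest called changes in each direction at a mean of at least 3 log2 CPM, with the same direction in 4 of 4 eyes and a symbol of 1 entry; the leading members of 23 lists and up to 4 of their called members; called genes opposite in fovea against periphery; the extremes of the tissue interaction; and low genes chosen after their values were seen. Of 401 listed symbols, 368 were in the tables; the others, among them GNAT1 and the cone opsins, were not analysed here. A few genes are left out of the text and plots and are not reported here. At totals of at least 42448891 per library, 3 counts are 0.0727 CPM or less. The variance between libraries of a location was 5.41 to 36.9 times that of counting error alone, so no 2 libraries were duplicates.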

Additional observations from a re-analysis of the deposited data

Results flagged for a closer look

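In 270 groups of 4 libraries checked for a single library far from the other 3 (Dixon's ratio at its 95% critical value), 13 were found. Chance gives about 1 in 20, so the number of flags was about that of chance. In the perimacula, RM04 OS stood high in RBPMS (231 CPM, the other eyes 91.6 to 115), PAX6 (551, others 359 to 391), PRUNE2 (194, others 111 to 118), EPHA4 (90.4, others 47.4 to 49.5), EBF3 (31.4, others 17.6 to 19.5), ASNS (57.7, others 44.8 to 45.8) and CYP26A1 (4.17, others 0.208 to 0.697), and low in the mean level of the photoreceptor transcription factors (7.07 log2 CPM, others 7.36 to 7.42). RM04 OD stood low in HR (151 CPM, others 321 to 355) and high in CYP26B1 (3.42, others 0.563 to 0.966) and S1PR3 (10.2, others 7.23 to 7.42). In the nasal retina, RM04 OS was low in IRX2 (4.95 CPM, others 6.19 to 6.42) and RM03 OD was high in RPE65 (193, others 117 to 123). Of the 11 flags in the perimacula, all fell on the fellow eyes of RM04, 8 on OS and 3 on OD. Genes of the same library are not independent, and where the flags fell was not tested.

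The perimacula to nasal change differed between retina and RPE/choroid by -5.64 for KIF19, -4.72 for GFAP, -4.26 for EBF3, 2.34 for PRUNE2, 2.31 for MAB21L1, 2.30 for PAX6 and 5.49 for FOXD1 (log2 scale, retina minus RPE/choroid, edgeR interaction test). For KIF19 and GFAP the RPE/choroid difference rests on a wide spread among the perimacula punches, 12.7 ± 19.6 and 44.6 ± 65.5 CPM (mean ± SD, n = 4 eyes).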

How the results depend on the processing

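For genes whose log2 fold change between perimacula and nasal retina is printed, the direction was kept in all 1345 combinations of gene and alternative, and 901 kept their side of the threshold, 419 lost the call and 25 gained it. Of the other named genes, ALDH1A1, DDIT3, NR2F2 and ONECUT1, none of them called, changed sign without perimacula library 3. Of 55 named called genes, 36 stayed called in the 9 alternatives other than the fit without a covariate and those that left out 1 eye or library, where tested. ATP1A4, FOXD1, RDH10 and SLC6A2 were called in every alternative that tested them, and OTX1 in the fewest, 5. Leaving out 1 eye lost 30 to 46 of the 55 calls. The number of called genes was less stable than the 231 of the comparison: 785 with DESeq2 (403 higher in the perimacula), 29 without a covariate, 534 with the fovea, perimacula and nasal libraries alone, 505 on flow cell HLKMNBBXX (243 higher in the perimacula) and 14 to 691 when 1 eye or library was left out. It was 14 without eye 4 and 22 without eye 1; leaving out single perimacula libraries 1 to 4 gave 45, 165, 691 and 71, and single nasal libraries 48, 62, 98 and 66. The eye block gave 158 calls, 152 of them among the 231, and changed no named call other than those given in the text. The share higher in the perimacula also moved with no low-count filter (104 of 244), with at least 10 counts in every retina library (93 of 233) and on flow cell HLKJ7BBXX (125 of 274). The animal interaction had 2 calls with DESeq2 against 0. The RPE/choroid contrast gave 1247 calls with DESeq2, 269 with the eye as a block, 1677 with the compared libraries alone and 19 to 195 without 1 eye, against 484; the tissue interaction gave 718, 628 (libraries alone) and 38 to 218, against 296. A prior count of 0.25 left each list level within 1 SD. FOXD1 and SLC6A2 could not be fitted with at least 10 counts in every library. The cause of these shifts was not tested. Fits that left out an eye or library also had fewer samples. The p-values of the main retina fit rest on the spread left after location and animal, shared by all 16 retina libraries. With 4 eyes of 2 animals, they cover these eyes alone.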
